A study of Mus musculus with 6 samples.

Results

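Galectins, annexins and S100 proteins are families of cytosolic proteins, several of which are known to mark T cells that have met antigen. Galectins bind β-galactoside sugars on glycoproteins and can act inside the cell or after export. Annexins bind phospholipid membranes when calcium rises, and many of them do so together with an S100 protein. S100 proteins are small dimers, most of which bind calcium. The 10 genes described here were chosen by name from the 32285 genes of the feature table: the galectins *Lgals1* and *Lgals3*, the annexins *Anxa1*, *Anxa2*, *Anxa5* and *Anxa6*, and the S100 genes *S100a4*, *S100a6*, *S100a10* and *S100a11*. The choice was made with earlier results of these data known, so the comparisons with all genes below are not those of a blind choice. All 10 were detected in each of the 4 gene expression libraries.

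The libraries held CD45+ CD3+ CD8+ Tomato+ cells sorted from B16-OVA melanomas and from the draining lymph nodes (LNs) of the same kind of mice, 12 days after engraftment per the labels (the study's text gives a range of days that starts there). Control mice were CD8-Cre Rosa26Tomato and CD8-IFNγRKO mice were CD8-Cre IFNgR1flox/flox Rosa26Tomato, so that all cells had expressed Cre under a CD8α promoter and only the second genotype lost the IFNγ receptor chain. Mice of both sexes, 6 to 10 weeks old, were used, and each library pooled 3 mice, so the spread between mice cannot be read from it. With 1 library per tissue and genotype no test could be run: every comparison is between 2 libraries, and the 95% intervals cover counting error only, treat UMIs as independent although UMIs of 1 cell are not, and say nothing of animals.

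After the filters, 6641 control LN, 6731 CD8-IFNγRKO LN, 7103 control tumor and 8636 CD8-IFNγRKO tumor cells remained, with medians of 4051, 3863, 6308 and 9402 UMIs (unique molecular identifiers, 1 per captured transcript) per cell. *Ifngr1*, the targeted gene, stood at 182 CPM (counts of UMIs scaled to 1e6 per library) in control and 137 in CD8-IFNγRKO LN, and at 718 and 237 CPM in tumor. Its UMIs were not placed within the transcript, so a remnant outside the deleted part would still be counted. CD8 T cell markers summed to 5358 to 8748 CPM with none of 7 at 0. Of these, *Cd2*, *Cd8a* and *Cd8b1* were required in every kept cell, so their presence was set by the filter. The 8 macrophage and monocyte markers summed to 3.57 and 4.58 CPM in LN and 20.8 and 15.4 CPM in tumor (control first), the 5 dendritic markers to 33.6 and 19.8 CPM in tumor, the 6 melanoma markers to 3.40 and 2.37 CPM in tumor and the 4 B cell markers to 18.2 and 22.2 CPM in LN. Of the 4 neutrophil markers, *S100a9* and *Retnlg* were at 0 in all 4 libraries and *S100a8* reached 0.0168 CPM in control tumor only. *Cd4* was at 4.22 to 18.4 CPM, the 2 NK markers summed to at most 0.372 CPM, the 2 erythroid markers to at most 1.94 CPM, and the 5 stroma markers to 49.8 and 48.5 CPM in LN, nearly all of it *Pecam1*, and 4.50 and 4.43 CPM in tumor. Library pairs shared 51 to 82 kept barcodes.

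The S100 members lie on chromosome 3 in mouse (GRCm38.p6). *S100a4* (chr3:90603770-90606045) and *S100a6* (chr3:90612894-90614414) are neighbors with only *S100a5* between them, and *S100a11* (chr3:93520496-93526288) lies near *S100a10* (chr3:93555117-93564645). *Lgals3* is at chr14:47373860-47386167, *Anxa1* at chr19:20373434-20390671, *Anxa2* at chr9:69453683-69491792, *Anxa6* at chr11:54978953-55033471 and *Lgals1* at chr15:78926725-78930465. *Anxa5* is also on chromosome 3, at chr3:36448923-36475887, away from the S100 genes.

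The 250 bases before the transcription start are shown for the 4 members that differed most between the genotypes (*Lgals3*, *Anxa1*, *S100a4* and *S100a6*, each past the fold used below in LN, tumor or both), so that the sequence next to their starts can be read beside their values. A promoter was listed for 7 of the 10 members in the RefSeq table used (GRCm38.p6). The windows are chr14:47373610-47373859 (plus strand), chr19:20390672-20390921 (minus strand), chr3:90603520-90603769 (plus strand) and chr3:90612644-90612893 (plus strand), each written from 5′ to 3′ on the gene's own strand, and capitals mark a match to a searched motif.
Lgals3: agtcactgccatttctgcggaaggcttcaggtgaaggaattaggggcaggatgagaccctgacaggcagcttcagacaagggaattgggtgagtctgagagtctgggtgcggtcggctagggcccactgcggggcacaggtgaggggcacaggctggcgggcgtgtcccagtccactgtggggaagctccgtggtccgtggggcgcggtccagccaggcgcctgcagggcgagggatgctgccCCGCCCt
Anxa1: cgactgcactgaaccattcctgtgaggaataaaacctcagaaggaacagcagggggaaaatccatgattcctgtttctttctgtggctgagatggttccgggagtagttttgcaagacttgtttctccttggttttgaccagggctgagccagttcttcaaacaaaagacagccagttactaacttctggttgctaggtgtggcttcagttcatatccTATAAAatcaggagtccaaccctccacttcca
S100a4: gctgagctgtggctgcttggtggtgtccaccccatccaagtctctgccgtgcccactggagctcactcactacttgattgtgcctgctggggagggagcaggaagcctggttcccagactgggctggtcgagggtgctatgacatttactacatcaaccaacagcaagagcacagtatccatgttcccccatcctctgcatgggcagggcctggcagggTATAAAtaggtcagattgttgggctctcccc
S100a6: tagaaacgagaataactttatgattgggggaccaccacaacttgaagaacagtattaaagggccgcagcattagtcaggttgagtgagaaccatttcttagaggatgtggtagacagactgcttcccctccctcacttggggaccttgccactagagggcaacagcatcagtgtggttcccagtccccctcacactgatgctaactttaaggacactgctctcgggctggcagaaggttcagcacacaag
Searched on both strands were the TATA box (TATAAA), the GC box (GGGCGG) and the AP-1 site (TGANTCA). *Anxa1* and *S100a4* each held TATAAA, beginning 32 and 31 bases before the start, a motif found in 12.4% of all 32851 promoter windows of this length. *Lgals3* held a GC box on the reverse strand (32.7% of windows) and *S100a6* held none of these motifs. No AP-1 site (6.75% of windows) lay in these windows, which says only that those letters are not there.

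The first comparison asked how the members differ between CD8 T cells of the LN and tumor-infiltrating lymphocytes (TILs). Together the 10 genes took 0.119% of all UMIs in control LN and 0.116% in CD8-IFNγRKO LN, against 1.53% and 1.36% in the tumor libraries. In control mice, 9 of 10 members had a tumor over LN log2 ratio of at least 1 (after adding 1 CPM) and none of -1 or less. Over all 3332 genes that reached 50 CPM in LN or tumor, 18.6% were past that fold upward and 9.24% downward. In CD8-IFNγRKO mice, 8 of 10 members were past it upward and none downward, where 20.4% and 11.2% of 3454 genes were. *Anxa1*, counted among these 8, was under the 50 CPM minimum there (0.347 CPM in LN, 23.4 CPM in tumor) and so is not among the 3454 genes. The median log2 ratio of the members was 5.07 in control and 4.47 in CD8-IFNγRKO mice, against 0.20 and 0.23 over all tested genes.

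**Figure D1:**
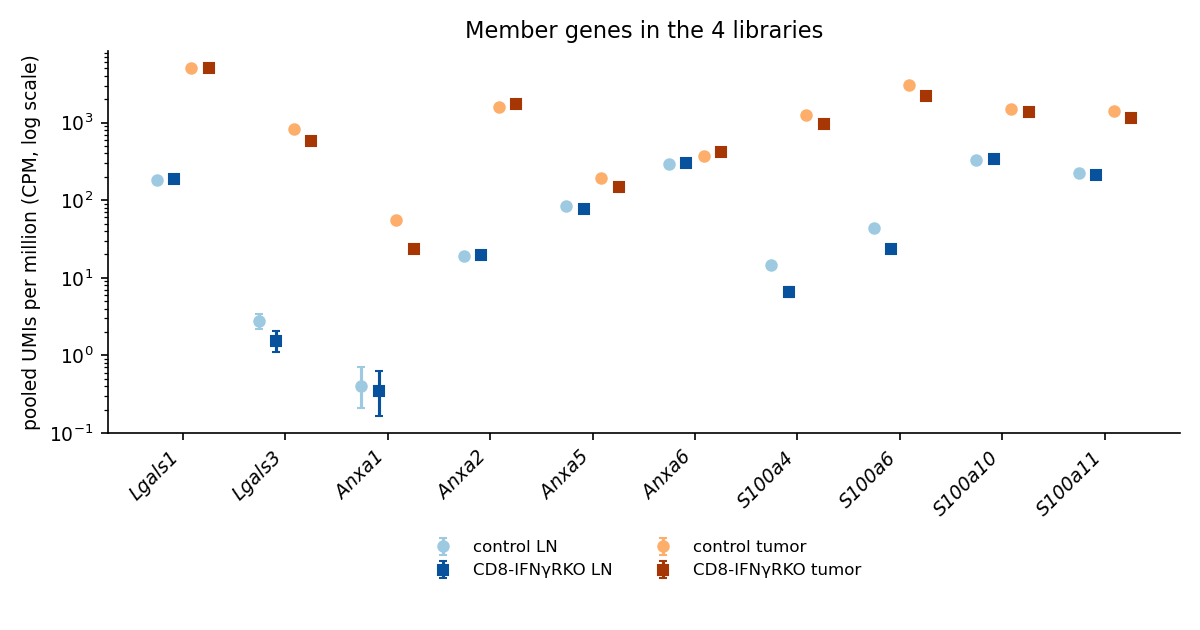
Pooled CPM (log axis) of the 10 members in the control and CD8-IFNγRKO LN and tumor libraries, with exact Poisson 95% intervals of counting error, most of them smaller than the symbols. Tumor points lie above LN points for every member, from *Anxa6* (376 against 293 CPM in control) to *Lgals3* (832 against 2.74 CPM).

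*Lgals1*, galectin-1, was the most abundant member in tumor. It stood at 181 CPM in control LN, 185 in CD8-IFNγRKO LN, 4988 in control tumor and 5021 in CD8-IFNγRKO tumor, a tumor over LN ratio of 27.6 (95% interval 26.8 to 28.3) in control and 27.2 (26.4 to 27.9) in CD8-IFNγRKO mice. To compare shares of cells at equal depth, each cell of at least 1600 UMIs was thinned to 1600 UMIs. Shallower cells, 237 and 41 in LN and 701 and 278 in tumor (control first), were left out of these shares. At that depth 17.4% and 19.4% of LN cells and 97.3% and 95.4% of tumor cells (control first) carried an *Lgals1* UMI. All libraries were sorted for CD8 T cells, so no cell type that lacks these genes was at hand, and the share of such cells that free RNA alone would give was not estimated for any member. Shares are therefore of cells with a UMI, not of cells that express the gene. In a pooled sum, fewer cells with a transcript and fewer transcripts per cell cannot be told apart, and here both measures were higher in tumor, with 1.44 UMIs per *Lgals1*-positive thinned cell in control LN and 7.53 in control tumor.

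*Lgals3*, galectin-3, the only galectin with a collagen-like tail that lets it form oligomers, was close to absent in LN. It reached 2.74 CPM in control LN (82 UMIs in 28 cells) and 1.53 CPM in CD8-IFNγRKO LN (44 UMIs in 9 cells), against 832 and 583 CPM in tumor. The tumor over LN ratio was 304 (245 to 382) in control, rank 12 from the top of 3332 genes, and 382 (285 to 526) in CD8-IFNγRKO mice, rank 6 of 3454. One cell of the CD8-IFNγRKO LN library held 29 of its 44 UMIs, and with each member's highest cell left out of every library (a setting added once the data had been seen), the log2 ratio in that genotype moved from 7.85 to 8.58.

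Among the annexins, *Anxa2* encodes the partner of S100A10 in a complex on the inner face of the membrane. It was at 19.0 and 19.8 CPM in LN and 1583 and 1741 CPM in tumor, ratios of 83.1 (76.6 to 90.4) and 88.1 (81.1 to 95.8). *Anxa1*, a protein known for dampening inflammation through formyl peptide receptors, had 12 and 10 UMIs in LN (0.401 and 0.347 CPM) and 56.3 and 23.4 CPM in tumor. It stayed rare even there, with a UMI in 8.54% of thinned control and 3.34% of CD8-IFNγRKO tumor cells. *Anxa5*, the phosphatidylserine-binding annexin, was at 83.4 and 76.6 CPM in LN and 192 and 147 CPM in tumor, ratios of 2.3 (2.2 to 2.4) and 1.93 (1.84 to 2.02), so that it passed the fold in control and missed it in CD8-IFNγRKO mice. *Anxa6*, which binds membranes with a doubled annexin core, was nearly level, at 293 and 299.6 CPM in LN and 376 and 424 CPM in tumor.

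The S100 members fell into a pair that was sparse in LN and a pair that was not. *S100a4*, whose protein binds non-muscle myosin heavy chain, was at 14.5 and 6.55 CPM in LN and 1247 and 968 CPM in tumor. *S100a6*, or calcyclin, was at 44.1 and 23.5 CPM in LN and 3092 and 2172 CPM in tumor. The tumor over LN ratios in control were 86.2 (78.4 to 94.9) for *S100a4* and 70.1 (66.4 to 74.1) for *S100a6*. *S100a10*, the partner of annexin A2, was already present in LN at 330.2 and 335 CPM and was at 1497 and 1373 CPM in tumor. *S100a11*, a partner of annexin A1, was at 225 and 211 CPM in LN and 1407 and 1154 CPM in tumor. At 1600 UMIs per cell, *S100a10* was seen in 39.1% of cells of either LN library and *S100a4* in 0.671% and 0.419%.

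Next, the genotypes were compared within the tumor. No member was past a log2 ratio of 0.5 upward in CD8-IFNγRKO TILs, where 7.30% of 3096 genes were, and 3 of 10 were past -0.5 downward, where 5.49% were. The median over the members was -0.32 and over all tested genes 0.03. *Anxa1* had the lowest ratio: 23.4 CPM in CD8-IFNγRKO against 56.3 CPM in control tumor, a ratio of 0.416 (0.394 to 0.439), rank 18 from the bottom of 3096 genes. *Lgals3*, at 583 against 832 CPM, had a ratio of 0.701 (0.692 to 0.709), and *S100a6*, at 2172 against 3092 CPM, a ratio of 0.702 (0.698 to 0.707). These last genes lie just past the fold, with a log2 ratio of -0.51 each, and *Anxa5* (-0.38) and *S100a4* (-0.36) fall short of it.

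The other members were closer to control. *S100a11* had a CD8-IFNγRKO over control ratio of 0.820 (0.813 to 0.828), *S100a10* of 0.917 (0.909 to 0.925) and *Lgals1* of 1.01 (1.00 to 1.01). *Anxa2* and *Anxa6* were higher in CD8-IFNγRKO tumor, with ratios of 1.1 (1.09 to 1.11) and 1.13 (1.11 to 1.15). Pooled over all depths, the transcripts of annexin A2 and of its partner S100A10 thus lay on opposite sides of control. Each ratio was small and between single libraries. In cells of 2000 to 5000 UMIs, however, *Anxa2* had a log2 ratio of -0.20 (-0.25 to -0.15). Its log2 ratio was -0.01 under 2000 UMIs, 0.08 at 5000 to 10000 and 0.12 at 10000 or more. Shares of thinned cells did not rank the members as the CPM ratios did: *Lgals1*, level in CPM, was seen in 97.3% (96.9 to 97.7) of control and 95.4% (94.9 to 95.8) of CD8-IFNγRKO cells, and *S100a6* in 91.8% and 85.1%. A share of cells has a ceiling that CPM lacks. Members seen in nearly all cells therefore have little room to differ in it, and the rankings need not match. *Lgals3* was seen in 65.0% of control and 50.7% of CD8-IFNγRKO cells (exact binomial 95% intervals 63.8 to 66.2 and 49.6 to 51.7). *S100a4* was seen in 78.0% and 66.8%, and *Anxa6* in 44.1% and 47.9%. Depth differed, with 28.7% of control and 46.6% of CD8-IFNγRKO tumor cells at 10000 UMIs or more. In cells of 2000 to 5000 UMIs the log2 ratio was -0.29 for *Lgals1* and -0.70 for *S100a4*. *S100a6* missed the fold at 5000 to 10000 UMIs (-0.38). *Lgals3* missed it under 2000 (-0.46) and at 10000 or more (-0.44). *Anxa1* was past it in every band.

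**Figure D2:**
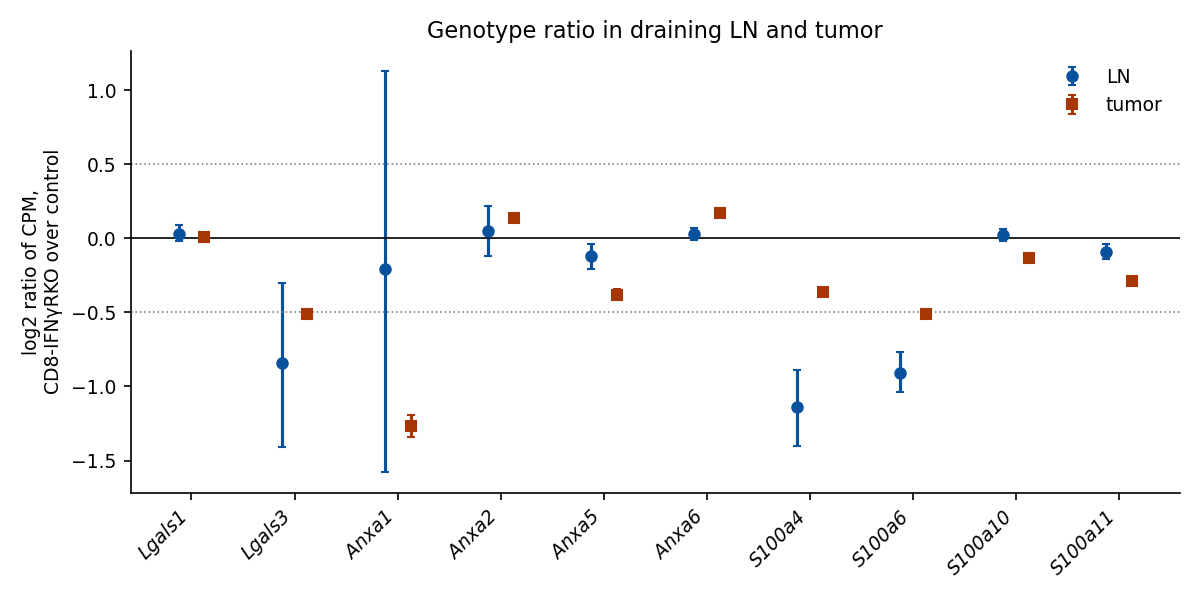
Log2 ratio of CPM, CD8-IFNγRKO over control, for each member in LN (circles) and tumor (squares), computed without a pseudocount, with exact conditional binomial 95% intervals of counting error, and dotted lines at -0.5 and 0.5. In tumor *Anxa1* lies lowest, at a ratio of 0.416, and in LN *S100a4* and *S100a6* lie lowest, at 0.453 and 0.534.

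In the LN, no member was past the fold upward and 3 were past it downward in CD8-IFNγRKO mice, where 0.291% of 2752 genes that reached 50 CPM were past it upward and 0.291% downward. Since *S100a4*, *S100a6* and *Lgals3* were all under that minimum, the shares over the 5968 genes of 5 to 50 CPM, a range chosen after the data were seen, bear more closely on the first pair: 0.318% upward and 0.721% downward. *S100a4* had 189 UMIs in CD8-IFNγRKO and 433 in control LN, a ratio of 0.453 (0.380 to 0.539). *S100a6* had 679 and 1320 UMIs, a ratio of 0.534 (0.486 to 0.586). *Lgals3* had a ratio of 0.557 (0.377 to 0.813). The 5 members with at least 50 CPM in LN were near control, from 0.917 for *Anxa5* to 1.02 for *Lgals1* and *Anxa6*. *Anxa2*, with 570 UMIs in each LN library, had a ratio of 1.04 (0.923 to 1.17), and *Anxa1* was too rare to compare (0.865, 0.335 to 2.18).

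These LN differences rest on few cells. *S100a4* UMIs came from 71 control and 48 CD8-IFNγRKO cells, with 6.10 and 3.94 UMIs per positive cell, and the top 1% of cells held 98.8% of them in control and all of them in CD8-IFNγRKO LN. *S100a6* UMIs came from 314 and 189 cells. At equal depth the share of *S100a6*-positive cells was 2.59% (2.22 to 3.01) in control and 1.42% (1.15 to 1.73) in CD8-IFNγRKO LN, while for *S100a4* the intervals of 0.671% (0.486 to 0.903) and 0.419% (0.278 to 0.604) overlapped. Among the cells with 10000 UMIs or more, 168 in control and 90 in CD8-IFNγRKO LN, the *S100a4* log2 ratio had the other sign, at 2.05 (42 UMIs in CD8-IFNγRKO and 18 in control), as had that of *Lgals3*, at 4.22 (29 UMIs against 1), and *S100a6* was at 0.13 (-0.29 to 0.54). All 29 of these *Lgals3* UMIs came from 1 cell. The highest *S100a4* cell of the CD8-IFNγRKO LN library held 33 UMIs, and its depth was not read. None of the 3 members past the fold in LN had a log2 ratio under 0 in these deepest cells, whereas the *S100a4* log2 ratio was -1.38 in cells of 2000 to 5000 UMIs and -1.16 in cells of 5000 to 10000. *Anxa6*, *S100a10* and *S100a11*, by contrast, were spread widely in LN, with 5.31% to 7.44% of their UMIs in the top 1% of cells.

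The cells that carried these transcripts in the LN tended to carry several of them. Of the 43 thinned control LN cells with an *S100a4* UMI, 31 also had *S100a6* (72.1%, 56.3 to 84.7), against 2.12% of the cells without *S100a4*. In CD8-IFNγRKO LN this was 20 of 28 cells (71.4%, 51.3 to 86.8) against 1.13%. Of the 17 control LN cells with *Lgals3*, 14 had *S100a4* and 14 had *S100a6*. *S100a10* was seen in 40 of the 43 *S100a4*-positive control LN cells (93.0%) and in 38.7% of the others, while *Anxa5* was seen in 30.2% and 13.0%. These shares describe cells of single libraries, and cells are not replicates of a genotype.

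*S100a4* and *S100a6* in LN also went with *Ccl5*, a chemokine of memory and effector CD8 T cells. After thinning, 433 control LN cells (6.76%) and 383 CD8-IFNγRKO LN cells (5.72%) had a *Ccl5* UMI. In control LN, *S100a6* was at 320.4 CPM in these cells and 15.6 CPM in the rest, *S100a4* at 88.0 and 7.64 CPM, *Lgals3* at 36.1 and 0.837 CPM, and *Anxa2* at 70.7 and 10.2 CPM. *S100a11* was level, at 225 and 233 CPM. Within the *Ccl5*-positive cells, *S100a6* was at 159.9 CPM in CD8-IFNγRKO against 320.4 CPM in control LN (log2 ratio -1.0, interval -1.36 to -0.65) and *S100a4* at 21.2 against 88.0 CPM (-2.0, interval -3.04 to -1.17), from 98 against 222 and 13 against 61 UMIs. Without a *Ccl5* UMI the log2 ratios were -0.55 and -0.89. Pooled *Ccl5* was 187 CPM in control and 152 CPM in CD8-IFNγRKO LN, *Cd44* 20.4 and 14.7 CPM, and *Gzmb* 4.21 and 1.87 CPM, so that markers of antigen-experienced cells were also lower in the CD8-IFNγRKO LN library. Their part in the *S100a4* and *S100a6* difference was not tested beyond the values within *Ccl5*-positive cells.

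**Figure D3:**
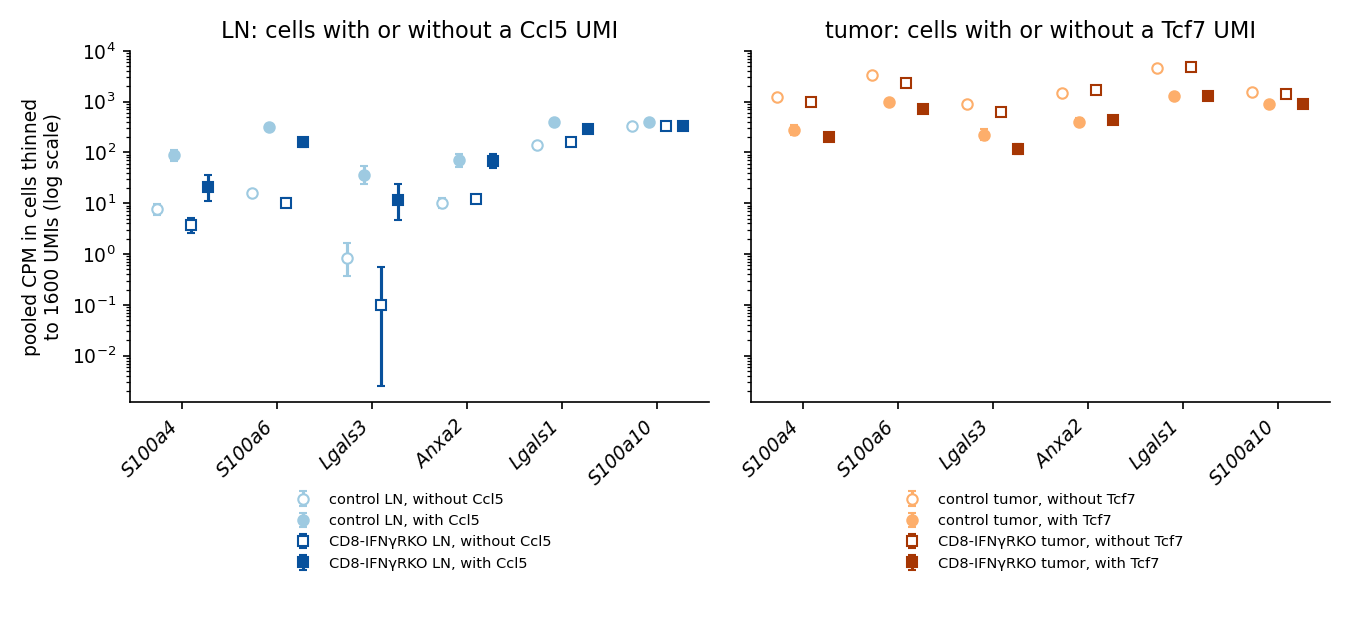
Pooled CPM (log axis) of 6 members in cells thinned to 1600 UMIs, with (filled) or without (open) a *Ccl5* UMI in LN (left) and with or without a *Tcf7* UMI in tumor (right), with exact Poisson 95% intervals. In LN *S100a6* was at 320.4 CPM with and 15.6 CPM without *Ccl5* in control, while in tumor it was at 962 CPM with and 3263 CPM without *Tcf7*.

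Within the tumor, the members were lower in cells with a UMI of *Tcf7*, the transcription factor gene of naive and stem-like T cells. There were 182 such cells in control (2.84%) and 435 in CD8-IFNγRKO tumor (5.20%). All 10 members were lower in *Tcf7*-positive than in *Tcf7*-negative cells in both tumor libraries. As log2 ratios, the largest differences were those of *S100a4* (282 against 1259.6 CPM in control, 203 against 968 CPM in CD8-IFNγRKO) and *Lgals3* (223 against 881 CPM, 119 against 617 CPM). The log2 ratios nearest to 0 were those of *Anxa6*, -0.75 in control and -0.42 in CD8-IFNγRKO tumor. *Gzmb*, the granzyme B gene of cytotoxic cells, sorted the members the other way: all 10 were higher in *Gzmb*-positive cells of both libraries, *Lgals3* at 921 against 503 CPM in control and 642 against 236 CPM in CD8-IFNγRKO tumor. The share of all genes on the same side was computed for neither the *Tcf7* nor the *Gzmb* split, so these member counts have no background beside them.

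The genotype difference of *Lgals3*, *S100a4* and *S100a6* was present on either side of the *Tcf7* split. In *Tcf7*-negative cells the log2 ratios were -0.51, -0.38 and -0.48, and in *Tcf7*-positive cells -0.90, -0.47 and -0.39. *Anxa1* had -1.40 in *Tcf7*-negative cells and -1.38 in *Tcf7*-positive cells, the latter with an interval from -3.33 to 0.32. The *Ccl5* split behaved differently in tumor, where *Ccl5* itself was 8189 CPM in control and 2765 CPM in CD8-IFNγRKO cells. In control tumor *Anxa1* was at 65.7 CPM with and 23.0 CPM without a *Ccl5* UMI, and in CD8-IFNγRKO tumor at 21.5 and 26.5 CPM. Among cells without a *Ccl5* UMI, 408 in control and 2216 in CD8-IFNγRKO tumor, the genotype log2 ratio was 0.20 for *Anxa1* (-0.59 to 1.1), 0.04 for *Lgals3* (-0.13 to 0.21) and -0.08 for *S100a4* (-0.20 to 0.05), while *S100a6* remained lower at -0.32 (-0.40 to -0.23). Proliferating cells, those with *Mki67*, had lower *Lgals3* (635 against 889 CPM in control, 482 against 614 CPM in CD8-IFNγRKO) and lower *S100a6* (2481 against 3281 CPM, 1981 against 2308 CPM), and made up 10.4% of control and 17.7% of CD8-IFNγRKO tumor cells.

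Paired T cell receptor chains, read from the same tumor cells, placed 4284 control cells (60.3%) in 259 clones and 5937 CD8-IFNγRKO cells (68.7%) in 429 clones. The members were lower in cells whose clone was seen once. *S100a4* was at 249 CPM in the 182 single cells of control tumor, 932 CPM in clones of 2 to 9 cells and 1361 CPM in clones of 10 cells or more. In CD8-IFNγRKO tumor it was at 109, 669 and 1033 CPM. All 10 members were higher in the largest class than in single cells in both libraries, by log2 ratios from 0.32 for *Anxa6* to 2.78 for *Lgals3* in control and from 0.62 to 3.23 (*Anxa6* and *S100a4*) in CD8-IFNγRKO tumor. Depth went the same way, with medians of 4041 and 6324 UMIs per cell in control and 3997 and 10503 in CD8-IFNγRKO tumor for the smallest and largest class, and its part was not tested here. The share of all genes that were higher in the largest class was not computed.

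**Figure D4:**
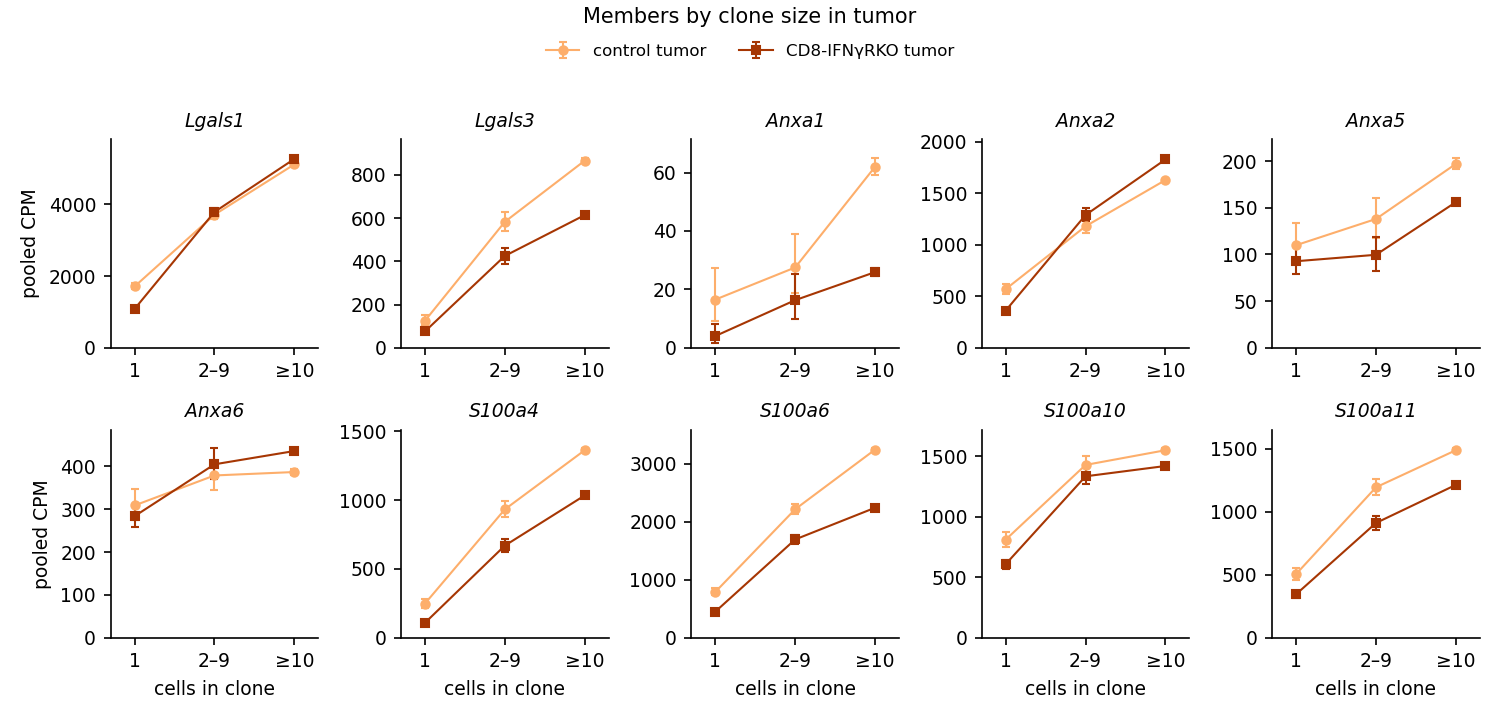
Pooled CPM of each member in tumor cells of clones of 1 cell, 2 to 9 cells and 10 or more cells, with exact Poisson 95% intervals of counting error (control, circles; CD8-IFNγRKO, squares; each panel has its own linear axis from 0). *Lgals1* was at 1709 CPM in single control cells and 5115 CPM in the largest clones, and at 1083 and 5267 CPM in CD8-IFNγRKO tumor.

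Clones differed from each other far more for some members than for others. Over the 22 control and 25 CD8-IFNγRKO clones of at least 20 cells, the coefficient of variation was 93.2% and 60.1% for *Anxa1*, 35.9% and 28.6% for *Lgals3*, 30.5% and 30.2% for *S100a6*, and 18.7% and 14.4% for *Lgals1*. *Anxa6* was the steadiest in CD8-IFNγRKO tumor, at 7.20%. The coefficients were not corrected for counting error, which weighs most on sparse members such as *Anxa1*. Among the 3 largest control clones, of 1104, 1009 and 516 cells, *Anxa1* stood at 104 CPM (96.7 to 111), 9.64 CPM (7.67 to 12.0) and 109.8 CPM (100.1 to 120.2). The 5 largest CD8-IFNγRKO clones ranged from 23.1 to 35.4 CPM, all above the second control clone and all below the first. No CD8-IFNγRKO clone exceeded the control median of 57.4 CPM, 13 of 22 control clones lay above the highest CD8-IFNγRKO clone, and 7 of 22 lay below the CD8-IFNγRKO median of 20.6 CPM. With each clone given the same weight, a setting also added later, the log2 genotype ratio went from -1.23 to -1.87. Clones of 1 library are not replicates of a genotype.

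*Lgals3* and *S100a6* showed the same direction over clones with more overlap. The median clone had 809 CPM of *Lgals3* in control and 611 CPM in CD8-IFNγRKO tumor, and 9 of 22 control clones lay above every CD8-IFNγRKO clone. For *S100a6* the medians were 3071 and 2076 CPM, no control clone lay above all CD8-IFNγRKO clones, and equal weights brought the log2 ratio to -0.40, short of the fold. *Anxa6* separated the other way: all 22 control clones lay below the CD8-IFNγRKO median of 432 CPM, and 14 of 25 CD8-IFNγRKO clones lay above every control clone, with means close together (431 ± 31.0 CPM, SD over 25 clones, against 366 ± 58.3 CPM, SD over 22 clones). *Anxa2* was at 1676 ± 304 CPM and 1475 ± 209.7 CPM.

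**Figure D5:**
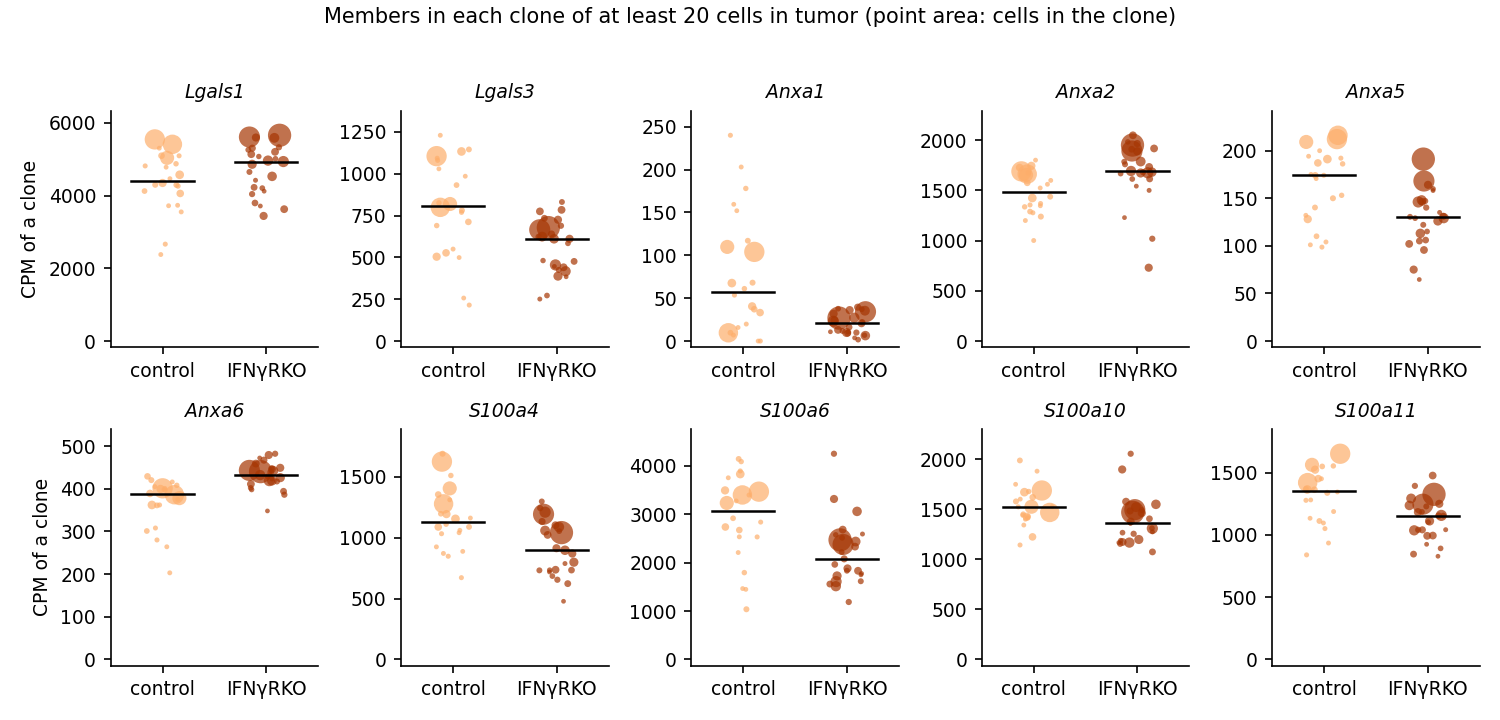
CPM of each member in every clone of at least 20 cells, 22 in control and 25 in CD8-IFNγRKO tumor. Point area grows with the cells in the clone, bars mark medians over clones, and each panel has its own linear axis. *Anxa1* spread from 0 to 240.0 CPM in control and from 1.65 to 39.5 CPM in CD8-IFNγRKO clones.

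Over the same clones, the gene most like each member in both tumor libraries was sought among 2686 genes, with the members themselves left out. Likeness was the lower of the Pearson correlations of log2(CPM + 10) across 22 and 25 clones. The closest gene was *Havcr2* for *Lgals1* (r = 0.79 in control, 0.70 in CD8-IFNγRKO), *Ahnak* for *Lgals3* (0.86 and 0.63) and *Ssr2* for *Anxa2* (0.72 and 0.85). It was *Plp2* for *Anxa5* (0.54 and 0.77) and *Itgb2* for *Anxa6* (0.55 and 0.59). For the S100 genes it was *Serinc3* for *S100a4* (0.67 and 0.68), *Fyn* for *S100a6* (0.57 and 0.60), *Lck* for *S100a10* (0.74 and 0.76) and *Ucp2* for *S100a11* (0.70 and 0.72). *Anxa1*, under 50 CPM in CD8-IFNγRKO tumor, was not ranked. Between members, *Anxa6* and *S100a4* had correlations of 0.59 and 0.70, so *S100a4* was more like *Anxa6* than *Itgb2* was. *S100a4* and *S100a11* had 0.67 and 0.67. The chromosomal neighbors *S100a4* and *S100a6* did not go together over clones (-0.22 in control, 0.38 in CD8-IFNγRKO). These correlations are descriptions across clones that share a library, and depth and cell state differ between clones.

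Most other genes of these families stayed under 20 CPM. Of 27 further galectin, annexin and S100 genes, 6 reached 20 CPM in control LN or tumor. Of these, 3 were past the fold upward in tumor: *Anxa4* (0.935 CPM in control LN, 31.6 CPM in control tumor), *Anxa7* (31.2 and 65.9 CPM) and *S100a13* (117 and 358 CPM). A higher level in tumor was thus not particular to the members. Over all genes of at least 50 CPM, 18.6% were past that fold upward. *Lgals9*, galectin-9, which binds the inhibitory receptor TIM-3, was level across the 4 libraries at 163 to 190.1 CPM. *Anxa11* was at 91.9 CPM in control LN and 166 CPM in control tumor, and *Lgals8* at 21.6 and 16.5 CPM. Between genotypes, none of the 5 that reached 20 CPM in a tumor library (*Anxa4* among them) and none of the 5 that did so in an LN library (*Lgals8* among them) was past the fold. *S100a5*, which lies between *S100a4* and *S100a6* and was singled out for that place after its values were seen, reached at most 0.218 CPM. The neutrophil gene *S100a9* was at 0 in every library.

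A list of 15 genes whose products bind, anchor, receive or build ligands for the members was read beside them. The list was chosen with earlier results of these data known. In control mice, 11 of these genes reached 20 CPM in LN or tumor. Of these, 4 were past the fold upward in tumor and 3 downward, with a median of -0.25. Over all genes of at least 50 CPM, a higher minimum, 18.6% were past it upward and 9.24% downward. Those upward were *Lag3*, an inhibitory receptor that galectin-3 binds (2.97 CPM in LN, 892 CPM in tumor), *Havcr2*, which encodes TIM-3 (0.100 and 305 CPM), *Ahnak*, a scaffold of the annexin A2 and S100A10 complex (95.7 and 465 CPM), and *Lgals3bp* (74.4 and 181 CPM). Those downward were *St6gal1*, whose sialic acid cap blocks galectin-1 binding (40.1 and 1.5 CPM), *Mgat5*, which builds the branched N-glycans that galectins bind (23.7 and 9.77 CPM), and *Cd7*, a galectin-1 receptor (126 and 45 CPM). The formyl peptide receptor genes *Fpr1* and *Fpr2* were at 0 apart from 0.0168 CPM of *Fpr2* in control tumor. Between genotypes in tumor, 2 of 9 were past the fold, both lower in CD8-IFNγRKO: *Lag3* (507 against 892 CPM) and *Havcr2* (210.5 against 305 CPM). In LN none of 9 was. Over all genes of at least 50 CPM, 5.49% were past the genotype fold downward in tumor.

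Of 10 genes of the effector program and the cytoskeleton, 7 were past the tumor over LN fold upward in control and 8 in CD8-IFNγRKO mice. The medians were 1.62 and 2.12. Over all genes of at least 50 CPM, 18.6% and 20.4% were past it upward. This list, too, was chosen with earlier results of these data known. *Klf2*, a factor of resting T cells, was past the fold downward (2101 to 168 CPM in control). *Capg*, an actin-capping protein gene, went from 23.4 to 442 CPM and *Vim*, the vimentin gene, from 609 to 1816 CPM in control. Between genotypes in tumor 1 was past the fold downward, *Lmna* (38.2 CPM in CD8-IFNγRKO against 65.0 CPM in control). *Klf2* (239 against 168 CPM) was past it upward at a log2 ratio of 0.50. Over all genes of at least 50 CPM, 5.49% were past that fold downward and 7.30% upward. In tumor the macrophage, dendritic and melanoma markers were lower in the CD8-IFNγRKO library, in the same direction as *Anxa1*, *Lgals3* and *S100a6*. In cells with no UMI of any marker of macrophages, neutrophils, dendritic cells, melanoma, B cells or stroma, 78.6% of control and 72.0% of CD8-IFNγRKO tumor cells, the same 3 members were past the fold. A cell without a marker UMI can still hold free RNA of other cells, and the part of such RNA in these ratios was not tested.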

How the data were processed

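The authors deposited counts: whole-number UMI counts per gene and cell barcode from 5′ single-cell libraries, made with Cell Ranger 6.0.0 and the mouse reference mm10, and T cell receptor contigs for the tumor libraries. Cells with 200 to 6000 genes, at most 3% mitochondrial UMIs, at most 20% of UMIs in 1 gene and a UMI (1 or more) of every one of *Cd8a*, *Cd8b1* and *Cd2* entered the sums. Doublets were not called. UMIs were summed over the cells of a library and divided by all its UMIs (CPM). Ratios used 1 added CPM for the fold thresholds and none for the printed intervals, which are exact 95% Poisson, conditional binomial or Clopper-Pearson intervals. Shares of cells and splits by a marker gene used cells thinned to 1600 UMIs, and cells with fewer UMIs were left out of them. A clone is the cells of 1 library with the same V, J and nucleotide CDR3 of both chains. With 1 library per group no test was possible. The share of all genes past each fold covers genes of at least 50 CPM in either library, without receptor segments.

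The 10 members, the lists and the marker genes were chosen with earlier results of these data known. All members are named, other family genes from 20 CPM in any library, and for each member the gene outside the members most like it over clones. Alternatives changed the cell filters, the library size, the averaging, the depth, the added CPM and the thresholds. A further promoter motif was searched and is not reported here. The calculations were tested on simulated data, with Poisson counts drawn from the pooled library means. Those counts hold no spread between cells or mice, so the simulation checks the arithmetic only. Python 3.11.15, numpy 2.4.6, pandas 2.3.3, scipy 1.17.1 and matplotlib 3.10.9 were used.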

Additional observations from a re-analysis of the deposited data

Results flagged for a closer look

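The genotype ratio of *Lgals1* differed in sign with clone size in the tumor. Its log2 ratio, CD8-IFNγRKO over control, was -0.66 in cells whose clone was seen once and 0.04 in clones of 10 cells or more. *Anxa2* had -0.66 in single cells and 0.17 in the large clones, and *Anxa6* -0.12 (-0.34 to 0.10) and 0.17. The shift was not particular to these genes: every member except *Anxa5* (-0.24 and -0.33) had a lower ratio in single cells than in large clones, among them *S100a4* (-1.18 and -0.40), *S100a6* (-0.81 and -0.53) and *S100a11* (-0.55 and -0.29). These differences were not tested, since each genotype has 1 tumor library, and the share of all genes that shifted likewise was not computed.

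*Lgals1* also differed between genotypes in its relation to *Ccl5*. The log2 ratio of tumor cells with over those without a *Ccl5* UMI was 0.29 (0.23 to 0.35) in control and -0.09 (-0.12 to -0.07) in CD8-IFNγRKO tumor. *Ccl5* UMIs were present in 93.6% of thinned control and 73.5% of thinned CD8-IFNγRKO tumor cells. This difference was not tested either.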

How the results depend on the processing

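With a fold threshold of 1 for the genotype, the number of members past it went from 3 to 1 in tumor (*Anxa1*) and from 3 to 1 in LN (*S100a4*). The tumor over LN count in control was 9, or 8 when library size omitted the receptor, mitochondrial, heat shock and ribosomal protein genes, where *Anxa5* had a log2 ratio of 0.91. In tumor *S100a6* ranged from -0.55 to -0.40 over the alternatives and missed the fold in 3 of 11, and *Lgals3* ranged from -0.56 to -0.51. In LN *Lgals3* ranged from -1.31 to -0.14 and missed the fold in 4 of 10 alternatives, while *S100a4* (-1.63 to -0.56) and *S100a6* (-1.11 to -0.69) stayed past it in all 10. *Anxa1* in tumor ranged from -1.87 to -0.99. No paired analysis was possible because each group has 1 library. Members under 20 CPM in LN rest on few UMIs, and the spread between mice is unknown.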
